A study of Homo sapiens with 6 samples.

Results

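The 38 genes described here encode proteins of homologous recombination and of the Fanconi anemia pathway, with the checkpoint kinases and break sensors that act with them. They were picked by symbol, not by their values, out of the 20802 genes measured in each library. Of the 38, 37 had at least 1 RPM (a gene's reads scaled to a fixed library total) in at least 2 of the 5 libraries compared and were tested among 11554 genes. RAD51D was the member below that limit.

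The libraries came from K562, a human leukemia line derived from chronic myeloid leukemia in blast crisis, infected with the lentiviral vector pLKO.1-puro and selected with puromycin at 2 µg/mL. The shSc cells carried a scrambled shRNA and the NPMKD cells carried shNPM300, the shRNA against NPM1 used for these libraries, and no other alteration is given for either group. The methods call the selected cells stable clones, so differences between clones and the loss of NPM cannot be told apart here. RNA was measured in 3 libraries per group by AmpliSeq, which amplifies a short stretch of each transcript with gene-specific primers, and separate cultures are not stated, so p-values measure a spread between libraries that may be technical.

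Homologous recombination repairs a broken chromosome by copying the intact sister: the ends are cut back, and with the help of BRCA2 the bared single strand invades the matching duplex. The Fanconi pathway handles crosslinks between the strands: a core complex of FANC proteins attaches ubiquitin to FANCD2 and FANCI, after which nucleases cut the crosslink out and recombination restores the duplex. Inherited loss of Fanconi genes causes bone marrow failure and predisposes to leukemia, and the NPM protein itself, a nucleolar chaperone, is frequently mutated in acute myeloid leukemia.

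NPM1 was lower in every NPMKD library than in every shSc library. The shSc libraries had 3856, 2968 and 3146 RPM in replicates 1, 2 and 3, against 1302, 1168 and 655 RPM in the same replicates of NPMKD. By limma its log2 fold change was -1.76 (standard error, SE, 0.35), short of the threshold of 0.05 with an adjusted p of 0.158. By DESeq2, run on reads recovered from the RPM values, it was -1.71 with an adjusted p of 0.00145 (9.23e-06 to 0.528 over all alternatives). The main comparison used shSc replicates 1 and 2, which the study kept, and the 3 NPMKD libraries. Replicate 3 of shSc stood apart: its correlation with the other libraries was 0.839 to 0.879, against 0.922 to 0.972 between those. Depth was 8842344 to 18981902 reads, so that 3 reads, the limit that a count of 0 allows, equal 0.158 to 0.339 RPM. All 14 erythroid markers of K562 were above 1 RPM in each of the 6 libraries, with a summed level of 8150 to 19383 RPM that overlapped between the groups. Of 22 markers of T, B, NK and epithelial cells and other types, 7 to 13 were at 0, and their summed level was 117 to 243 RPM in the 5 libraries and 457 RPM in shSc replicate 3, with EPCAM the highest in every library. Their part in the results below was not tested.

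No member passed the main test in either direction. In the comparison of 5 libraries none of the 37 reached an adjusted p of 0.05 with limma, edgeR or DESeq2. A limma fit with the replicate number as a block, on the 4 libraries numbered 1 and 2, called 3 members (ATM, RAD51C and FANCF) and 14.9% of all genes. Over all genes limma called 0.0692% higher and 0.0606% lower in NPMKD, edgeR called 0.0952% and DESeq2 called 1.64%, so a list of 37 would hold few calls at these rates. The lowest adjusted p of a member was that of FANCF by each tool: 0.347 by limma, 0.356 by edgeR and 0.0616 by DESeq2 (0.00856 to 0.9999 over all alternatives for that gene). At an unadjusted p under 0.05, 2 members were higher (FANCF and RAD51C) and 0 were lower by limma, against 3.81% and 3.33% of all genes. The same 2 members were under that limit by edgeR and by DESeq2, against 6.94% and 7.56% of all genes in either direction.

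The fold changes lay on both sides of 0. On the log2(RPM + 0.5) scale, which understates the change of genes at low RPM, the median over the 37 members was 0.02 (quartiles -0.22 and 0.20), and over all 11554 genes it was 0.01 (quartiles -0.27 and 0.27). The log2 fold change was positive for 20 members and negative for 17, against 5871 and 5682 of all genes. Among the members it ran from -1.12 in ATM to 0.99 in FANCF. For 24 members it was within 1.25-fold of no change. The ratio of the group means was over 1.5 for 4 members and under 1/1.5 for 1, ATM. These counts by size of change were made for the members only, so they cannot set the members apart from other genes.

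**Figure D1:**
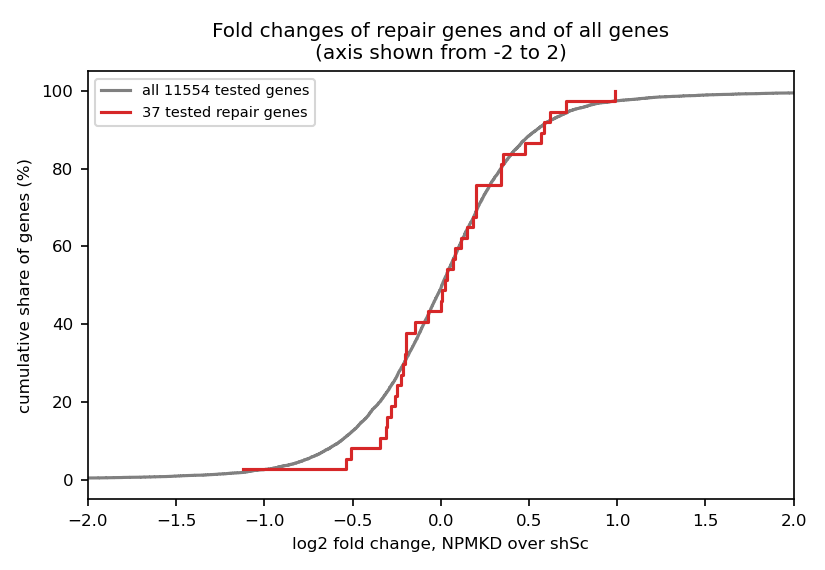
Cumulative share of genes (vertical axis, percent) against the log2 fold change of NPMKD over shSc (horizontal axis, shown from -2 to 2), in grey for all 11554 tested genes and in red for the 37 tested repair genes. The curves cross near 0 (medians 0.01 and 0.02), and the red curve starts at -1.12 and ends at 0.99.

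These data bound the changes of part of the list. The 95% interval of the log2 fold change lay wholly between -1 and 1 for 21 of 37 members (56.8%, against 40.1% of all genes), so for those a doubling or a halving was outside the interval, taken gene by gene. For the other 16 the interval reached past -1, past 1 or, in ATM, past both. The median SE was 0.29 over the members and 0.34 over all genes. The gap between shSc replicates 1 and 2 was itself over 1.5-fold for 10 members, among them ATM, NBN and CHEK1, and on the log2 scale the difference between the group means was larger than the gap between the 2 shSc libraries for 14 of 37. Both counts were made for the members only, so they cannot set the members apart from other genes.

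**Figure D2:**
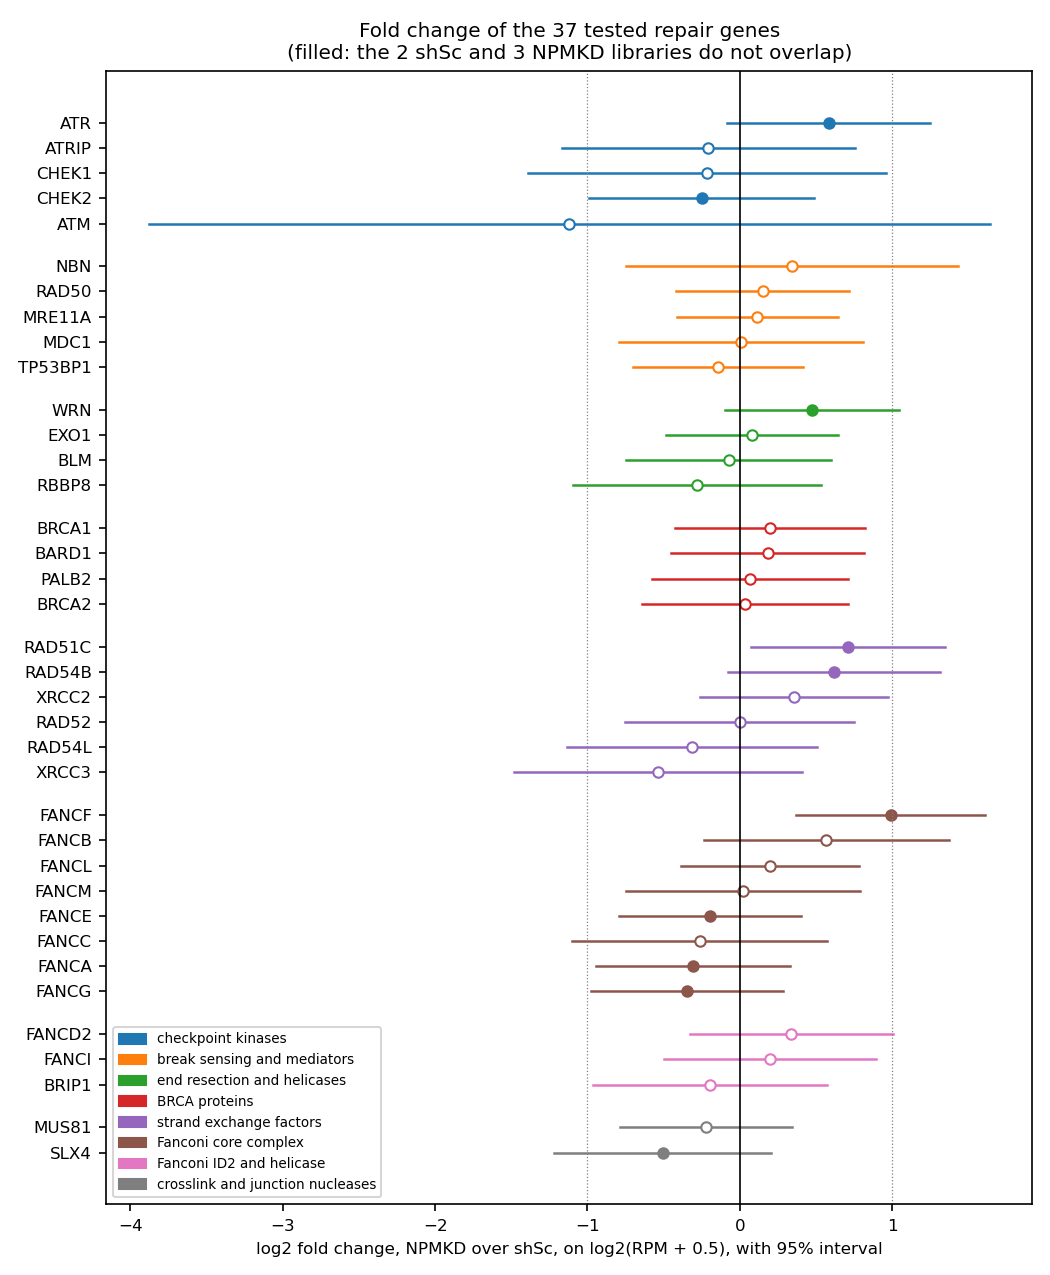
Log2 fold change of NPMKD over shSc (horizontal axis, on log2(RPM + 0.5)) with its 95% interval for each of the 37 tested genes, grouped by role (colour), with filled points where the 2 shSc and 3 NPMKD libraries do not overlap and dotted lines at -1 and 1. Only the intervals of FANCF (0.37 to 1.61) and RAD51C (0.08 to 1.35) lie on one side of 0, and that of ATM (-3.88 to 1.64) is the widest.

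In the 5 libraries, 10 members did not overlap between the groups. ATR, WRN, RAD51C, RAD54B and FANCF were higher in each NPMKD library than in both shSc libraries (5 of 37, against 12.3% of all genes), and CHEK2, FANCA, FANCE, FANCG and SLX4 were lower in each (5 of 37, against 10.4% of all genes). Together these were 27% of the members and 22.8% of all genes. With shSc replicate 3 included, 4 members stayed apart as higher (ATR, WRN, RAD51C and RAD54B, against 9.41% of all genes) and 2 as lower (FANCG and SLX4, against 4.54%). NPMKD replicate 3, the library with the lowest NPM1, was the NPMKD library nearest to shSc for ATR, RAD51C, RAD54B, FANCF, FANCA and FANCE, and the farthest for WRN and CHEK2.

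**Figure D3:**
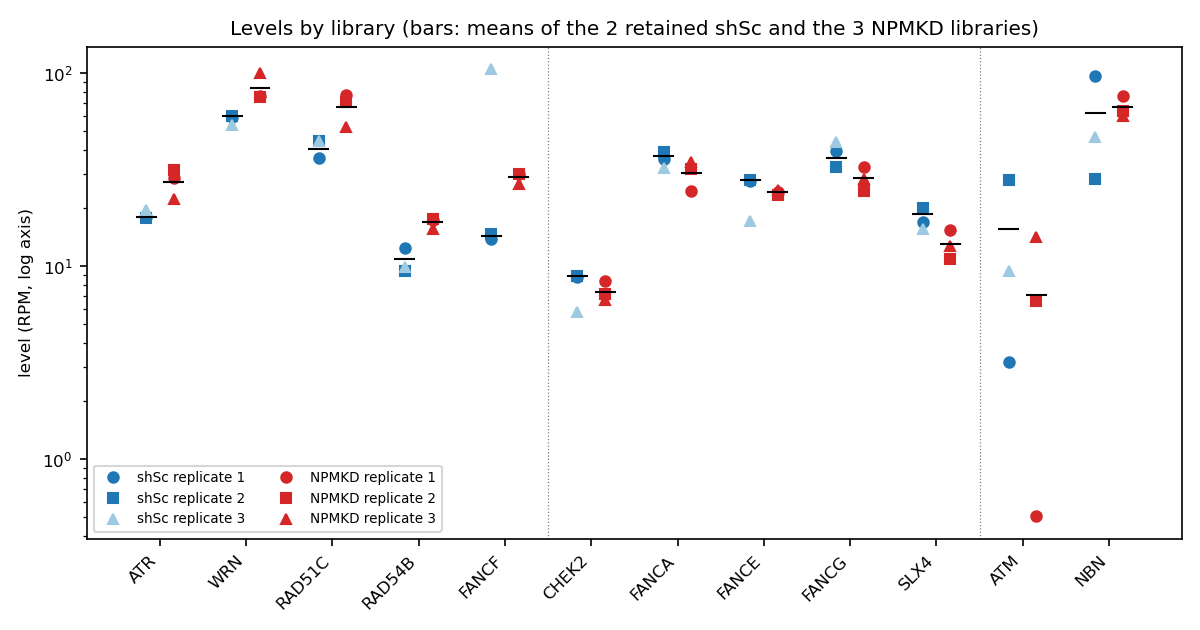
Level in RPM (vertical log axis) of 12 members in each of the 6 libraries, shSc in blue (replicate 3 pale) and NPMKD in red, with bars at the means of the 2 retained shSc and the 3 NPMKD libraries. From the left stand 5 members that were higher and 5 that were lower in NPMKD without overlap, then ATM and NBN, whose 2 retained shSc libraries differed 8.77-fold and 3.41-fold, and FANCF in shSc replicate 3 stands far above its other libraries at 104 RPM.

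Among the checkpoint kinases the 5 members did not share a direction (median log2 fold change -0.21, range -1.12 to 0.58). ATR, the kinase that answers to single-stranded DNA at stalled forks (chromosome 3, GRCh37, 142167849 to 142297575, minus strand), had 18.0 and 17.8 RPM in shSc, 19.5 RPM in shSc replicate 3, and 28.4, 31.6 and 22.1 RPM in NPMKD. Each NPMKD library was thus above each shSc library. The means were 17.9 ± 0.185 RPM (SD, n = 2) and 27.4 ± 4.80 RPM (SD, n = 3), a ratio of 1.53. The log2 fold change was 0.58 (SE 0.29, 95% interval -0.08 to 1.25, adjusted p = 0.761).

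ATM, the kinase switched on by double-strand breaks (chromosome 11, 108093771 to 108239829, plus strand), had 3.17 and 27.8 RPM in shSc, 9.39 RPM in shSc replicate 3, and 0.505, 6.57 and 14.1 RPM in NPMKD. The groups overlapped, and the value of NPMKD replicate 1 rested on 6 reads. The log2 fold change of -1.12 (SE 1.19, adjusted p = 0.909) was the lowest among the members, and without shSc replicate 2 it was 0.35. CHEK2, which ATM phosphorylates (chromosome 22, 29083731 to 29138410, minus strand), had 8.81 and 8.85 RPM in shSc, 5.77 RPM in shSc replicate 3, and 8.33, 7.16 and 6.64 RPM in NPMKD. The 3 NPMKD libraries lay just below both retained shSc libraries but above replicate 3 (log2 fold change -0.25, SE 0.32, adjusted p = 0.922). CHEK2 has 7 annotated pseudogenes of its name, which can share reads with it. ATRIP, the partner of ATR, and CHEK1, its effector kinase, overlapped between groups, with log2 fold changes of -0.21 and -0.21.

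The break sensors and mediators showed small fold changes, and all 5 overlapped between the groups. MRE11A, RAD50 and NBN form the complex that binds broken ends. MRE11A had 86.1 and 87.7 RPM in shSc against 84.1, 100.1 and 99.4 RPM in NPMKD (log2 fold change 0.12), and RAD50 had 57.4 and 48.2 RPM in shSc against 62.8, 51.9 and 61.1 RPM in NPMKD (0.15). NBN (chromosome 8, 90936743 to 91015456, minus strand) had 96.1 and 28.2 RPM in shSc, 46.8 RPM in shSc replicate 3, and 76.4, 63.7 and 59.9 RPM in NPMKD. All 3 NPMKD libraries lay between the 2 retained shSc values. Its log2 fold change was 0.34 (SE 0.47, adjusted p = 0.922) and was -0.53 without shSc replicate 2. The ratio of its group means was 1.07, and its log2 fold change was 0.12 by edgeR and 0.11 by DESeq2. MDC1, a scaffold on the histone mark around breaks, and TP53BP1, which restrains end resection, had log2 fold changes of 0.01 and -0.14.

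Of the 4 genes of end resection and the RecQ helicases 1 was apart, against 22.8% of all genes. WRN, a helicase and exonuclease lost in Werner syndrome (chromosome 8, 30891304 to 31033654, plus strand), had 59.4 and 60.1 RPM in shSc, 53.7 RPM in shSc replicate 3, and 76.4, 75.3 and 100.3 RPM in NPMKD. Its NPMKD libraries were all above its 3 shSc libraries. The means were 59.7 ± 0.447 RPM (SD, n = 2) and 84.0 ± 14.1 RPM (SD, n = 3), a ratio of 1.41, and the log2 fold change was 0.48 (SE 0.25, adjusted p = 0.775). RBBP8, which starts resection with the MRE11A complex, EXO1, the nuclease that extends it, and BLM, the Bloom syndrome helicase, overlapped between groups, with log2 fold changes of -0.28, 0.08 and -0.07.

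The BRCA proteins were the group with the narrowest range: 4 of 4 had a 95% interval between -1 and 1, log2 fold changes of 0.03 to 0.20, and overlapping groups. BRCA1, which with BARD1 forms a ubiquitin ligase that favours resection (chromosome 17, 41196312 to 41322262, minus strand), had 44.9 and 31.0 RPM in shSc, 31.8 RPM in shSc replicate 3, and 41.5, 45.4 and 42.2 RPM in NPMKD. The NPMKD libraries lay close together, near the higher shSc value. The log2 fold change was 0.20 (SE 0.27, 95% interval -0.42 to 0.82, adjusted p = 0.922) and was -0.06 without shSc replicate 2. BRCA2, which prepares the resected strand for invasion, had 24.3 and 18.2 RPM in shSc against 20.6, 24.6 and 19.7 RPM in NPMKD, and its log2 fold change was 0.03. PALB2, the bridge between BRCA1 and BRCA2, and BARD1 had log2 fold changes of 0.07 and 0.18.

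Of the 6 tested strand exchange factors 2 were apart, against 22.8% of all genes. RAD51C, which acts in strand exchange in complexes with XRCC2 or XRCC3 (chromosome 17, 56769934 to 56812972, plus strand), had 36.1 and 44.6 RPM in shSc, 44.2 RPM in shSc replicate 3, and 77.2, 70.9 and 52.5 RPM in NPMKD. The lowest NPMKD library was above the highest shSc library. The means were 40.3 ± 6.0 RPM (SD, n = 2) and 66.8 ± 12.8 RPM (SD, n = 3), a ratio of 1.66. Its log2 fold change was 0.71 (SE 0.27, 95% interval 0.08 to 1.35, adjusted p = 0.639) and was 0.56 to 0.87 over all alternatives. RAD54B, a motor protein that remodels the duplex during strand invasion (chromosome 8, 95384188 to 95487343, minus strand), had 12.3 and 9.41 RPM in shSc, 9.84 RPM in shSc replicate 3, and 17.3, 17.6 and 15.6 RPM in NPMKD. Every NPMKD library was above every shSc library (log2 fold change 0.62, SE 0.30, adjusted p = 0.757). The gene overlaps the coding gene FSBP.

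The rest of that group overlapped or was near the limit of detection. XRCC3, a direct partner of RAD51C (chromosome 14, 104163946 to 104181841, minus strand), had 37.4 and 22.5 RPM in shSc, 20.2 RPM in shSc replicate 3, and 26.5, 12.4 and 23.7 RPM in NPMKD. Its groups overlapped (log2 fold change -0.53, SE 0.41, adjusted p = 0.856). XRCC2, which joins RAD51C and RAD51D in a larger complex, had 64.3 and 88.7 RPM in shSc against 89.4, 117.3 and 86.1 RPM in NPMKD (0.35). RAD52, which anneals single strands, had means of 8.51 RPM in shSc and 8.58 RPM in NPMKD, and RAD54L, the main RAD54 motor, had a log2 fold change of -0.31. RAD51D, of the same complex, had 0.070 and 0.558 RPM in shSc, 1.24 RPM in shSc replicate 3, and 0.505, 0.085 and 0.738 RPM in NPMKD, with 1 read in shSc replicate 1 and in NPMKD replicate 2. No fold is given for it.

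In the Fanconi core complex 4 of 8 members were apart, 1 higher and 3 lower, against 22.8% of all genes, with a median log2 fold change of -0.09. FANCF, an adaptor that holds subcomplexes of the core together, lies on chromosome 11 from 22644079 to 22647369 (minus strand). It had 13.8 and 14.7 RPM in shSc against 30.0, 29.8 and 26.6 RPM in NPMKD, with means of 14.2 ± 0.607 RPM (SD, n = 2) and 28.8 ± 1.96 RPM (SD, n = 3), a ratio of 2.02. The 5 libraries formed separate tight groups. The log2 fold change was 0.99 (SE 0.27, 95% interval 0.37 to 1.61, adjusted p = 0.347).

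With shSc replicate 3 the picture for FANCF changed. That library had 104 RPM, above all NPMKD libraries, and with it the log2 fold change was 0.05 and the groups overlapped. FANCF was the single member annotated with 1 exon. Of 373 tested genes with 1 exon, 258 (69.2%) were over 2 times as high in shSc replicate 3 as in the highest of the other 5 libraries, against 5.25% of the 10593 genes with more exons and 1 of the 37 members. Among the genes with 1 exon, 9.65% were higher without overlap in NPMKD over the 5 libraries and 8.85% were lower, against 12.4% and 10.6% of those with more exons. The part of this in the FANCF values was not tested. The gene also overlaps the coding gene GAS2, and use of strand in the counting is not given.

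FANCG, FANCA and FANCE were lower in the NPMKD libraries. FANCG, which binds FANCA in the core (chromosome 9, 35073832 to 35080001, minus strand), had 39.6 and 32.8 RPM in shSc, 44.1 RPM in shSc replicate 3, and 32.6, 24.6 and 28.1 RPM in NPMKD. The highest NPMKD value was just under the lowest shSc value (log2 fold change -0.35, SE 0.27, adjusted p = 0.858). FANCA, the gene most often mutated in Fanconi anemia (chromosome 16, 89793091 to 89883385, minus strand), had 35.7 and 38.9 RPM in shSc, 32.2 RPM in shSc replicate 3, and 24.5, 31.9 and 34.6 RPM in NPMKD. FANCE, the subunit that binds FANCD2 (chromosome 6, 35420115 to 35434881, plus strand), had 27.6 and 28.1 RPM in shSc, 17.1 RPM in shSc replicate 3, and 24.3, 23.5 and 24.9 RPM in NPMKD. Both were apart in the 5 libraries and overlapped once replicate 3 was counted. Their log2 fold changes were -0.31 (adjusted p = 0.885) and -0.20 (adjusted p = 0.922), and that of FANCE was 0.03 over all 6 libraries. FANCA shares its locus with ZNF276.

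The other core members overlapped between the groups. FANCB, which joins FANCL in the catalytic module, had 14.4 and 9.09 RPM in shSc against 20.9, 13.6 and 18.0 RPM in NPMKD (log2 fold change 0.57, SE 0.35, adjusted p = 0.804). FANCL, the ubiquitin ligase itself, FANCM, the motor that anchors the complex at the fork, and FANCC, which binds FANCE and FANCF, had log2 fold changes of 0.20, 0.02 and -0.26. The 4 subunits thus gave values on both sides of 0, and the SEs of FANCM and FANCC were 0.33 and 0.36.

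The targets of the core overlapped between groups. FANCD2, which receives the ubiquitin (chromosome 3, 10068054 to 10143616, plus strand), had 74.2 and 106.1 RPM in shSc, 89.0 RPM in shSc replicate 3, and 88.0, 117.6 and 136.8 RPM in NPMKD. Its shSc range and NPMKD range ran into each other (log2 fold change 0.34, SE 0.29, adjusted p = 0.875). Its partner FANCI had 44.8 and 62.2 RPM in shSc against 46.1, 64.7 and 74.5 RPM in NPMKD (0.20). BRIP1, the helicase bound by BRCA1, had a log2 fold change of -0.19.

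Of the nucleases, SLX4 was apart and MUS81 was not. SLX4, the scaffold on which crosslink and junction nucleases assemble (chromosome 16, 3631182 to 3661607, minus strand), had 16.9 and 20.1 RPM in shSc, 15.5 RPM in shSc replicate 3, and 15.4, 10.8 and 12.6 RPM in NPMKD. The NPMKD libraries were all below the 3 shSc libraries, the closest by 15.4 to 15.5 RPM. The means were 18.5 ± 2.25 RPM (SD, n = 2) and 13.0 ± 2.30 RPM (SD, n = 3), a ratio of 0.70, and the log2 fold change was -0.51 (SE 0.31, adjusted p = 0.804). MUS81, a nuclease that SLX4 binds, had 67.5 and 81.1 RPM in shSc against 72.4, 59.2 and 59.3 RPM in NPMKD (-0.22).

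**Figure D4:**
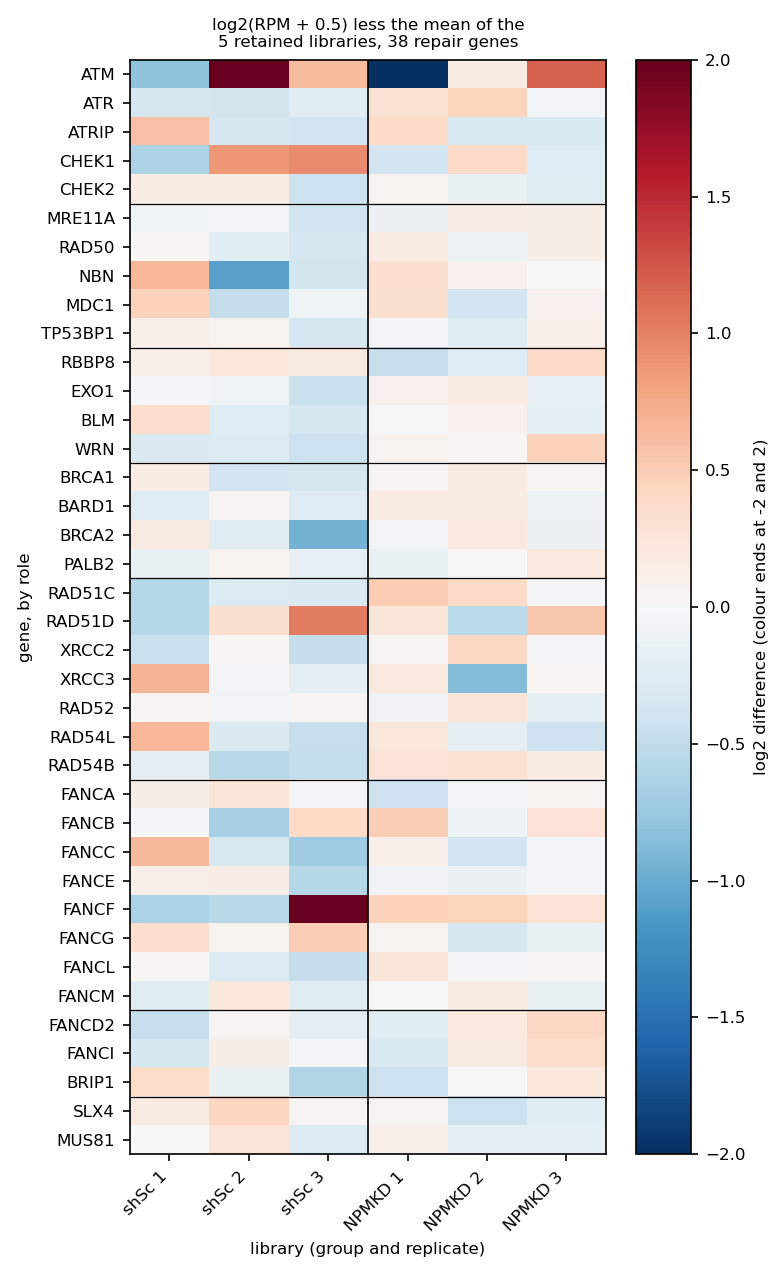
Level of each of the 38 genes (rows, by role) in each of the 6 libraries (columns) as log2(RPM + 0.5) less the mean of the 5 retained libraries, with colours ending at -2 and 2. No role is of one colour throughout shSc and of the other throughout NPMKD, the strongest colours are single cells of ATM and of FANCF in shSc replicate 3, and 18 of the 37 tested genes were lowest of the 6 libraries in shSc replicate 3.

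Library by library, the mean of log2(RPM + 0.5) over the 37 members was 4.89 and 4.83 in shSc and 4.86, 4.88 and 4.92 in NPMKD, so the groups overlapped. Replicate 3 of shSc had 4.72, the lowest of the 6, and 18 of 37 members (48.6%, against 26.8% of all genes) were lowest there while 3 (8.11%, against 15.4%) were highest there. Over 29 S phase and mitosis genes, which are read out in the same cell cycle phases as many repair genes, that mean was 7.01 and 6.85 in shSc and 7.13, 7.0 and 6.94 in NPMKD. In bulk RNA, fewer cells in a cycle phase and less RNA per cell cannot be told apart.

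Promoter sequence was compared because many of these genes are known targets of E2F, the factor that switches on S phase genes, and of the CCAAT-binding factor NF-Y. The window was RefSeq's 250 bases before to 50 after the start of each gene (GRCh38.p14), found for 34 of the 38. Each gene had 1 window (that of BRCA1 was chr17:43170278-43170577), so starts elsewhere in a gene were not searched. A window without a match, such as those of BRCA1 and CHEK1 for E2F, does not show that the promoter in use lacks one. The E2F words TTTCCCGC, TTTGGCGC, TTTCGCGC and TTTGCCGC, searched on both strands, were in 5 of 34 member windows (14.7%), in 3.33% of all 27305 windows and in 5.62% of the 8833 windows of tested genes. The members with a word were EXO1, XRCC2, FANCA, FANCC (with 2 words) and FANCD2. They are shown because, of the 3 motifs searched, this one had the largest ratio of the members' share to that of all windows, which was seen before they were chosen for printing. Each line gives 30 bases on the gene's strand, 5′ to 3′, with the matched word in capitals, which reads as its reverse complement where it begins with GC.
EXO1, chr1:241848197-241848226, plus strand: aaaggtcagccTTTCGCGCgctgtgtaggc
XRCC2, chr7:152676102-152676131, minus strand: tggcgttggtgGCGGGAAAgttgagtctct
FANCA, chr16:89816801-89816830, minus strand: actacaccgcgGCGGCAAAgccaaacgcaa
FANCC, chr9:95317737-95317766, minus strand: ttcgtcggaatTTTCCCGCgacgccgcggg
FANCC, chr9:95317863-95317892, minus strand: ccggggcttccGCGCGAAAccgggaacact
FANCD2, chr3:10026424-10026453, plus strand: cgtcgggcctgGCGGGAAAgtcgaaaacta

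The words lay 2 bases before the annotated start in FANCD2, 46 and 172 before it in FANCC, 172 before it in FANCA, and 4 and 21 after it in EXO1 and XRCC2. The 5 genes did not share a direction: log2 fold changes were 0.35 in XRCC2, 0.34 in FANCD2, 0.08 in EXO1, -0.26 in FANCC and -0.31 in FANCA. CCAAT was in 16 of 34 member windows (47.1%, against 35.7% of all and 37.4% of those of tested genes), the FANCF window among them. TTTGAA, the core of the CHR element of cell cycle promoters, was in 4 (11.8%, against 15.4% and 9.5%). No match of a motif overlapped another in the member windows. A match is a description of letters and not a binding site.

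Other genes of the same pathways also gave 0 calls with limma in the main comparison, and the blocked fit on 4 libraries called 5 of the further recombination and Fanconi genes, 1 end joining gene and 2 S phase and mitosis genes. Of 56 further recombination and Fanconi genes, 53 were tested, with a median log2 fold change of 0.02 and 28 positive and 25 negative values. Without overlap, 5 were higher and 6 lower (20.8% together, against 22.8% of all genes). By limma 1 was higher at an unadjusted p under 0.05, RAD1, and 0 were lower, against 3.81% and 3.33% of all genes. RAD1, part of the ring-shaped clamp through which ATR is activated, had 37.8 and 37.7 RPM in shSc, 40.8 RPM in shSc replicate 3, and 60.2, 53.4 and 57.8 RPM in NPMKD. Its NPMKD libraries were all above its shSc libraries (log2 fold change 0.59, SE 0.24, adjusted p = 0.660). RNF8, a ubiquitin ligase that marks chromatin at breaks, had 22.5 and 37.4 RPM in shSc against 41.0, 44.6 and 43.6 RPM in NPMKD (0.56, adjusted p = 0.783).

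The 18 end joining genes had a median log2 fold change of -0.07 (from -0.57 to 0.64), with 0 at an unadjusted p under 0.05. Without overlap, 0 were higher and 2 lower (11.1% together, against 22.8% of all genes). The 2 were POLM, a polymerase that fills gaps at joined ends (-0.24), and XRCC1, a scaffold of single-strand break repair and back-up joining (-0.18). The 29 tested S phase and mitosis genes had a median of 0.13, with 21 positive and 8 negative values and 0 at an unadjusted p under 0.05. Of these genes, 1 was higher and 4 were lower without overlap (17.2% together, against 22.8% of all genes). BUB1, a kinase of the spindle checkpoint, had 223.7 and 218.4 RPM in shSc against 151.2, 133.7 and 206.2 RPM in NPMKD (-0.46, adjusted p = 0.804), and MCM3, a subunit of the replicative helicase, had a log2 fold change of -0.26. Levels were compared between libraries within a gene and not between genes, since each gene was read through its own amplicon.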

How the data were processed

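The authors extracted RNA with TRIzol and prepared AmpliSeq libraries from mRNA pre-treated with DNaseI. They aligned reads to hg19 and deposited RPM per gene, a gene's reads scaled to a fixed library total. The RPM values came from a plugin whose version is not given in the sources used here. From the steps between a library's RPM values, 100% of them came out as whole reads to within 0.1 read, and 10 spike-in rows, all at 0, were left out. Group means listed by the study equalled those of shSc replicates 1 and 2 for 693 of 693 genes to within 0.001 RPM or 0.001% of the mean, which identified the retained pair.

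The 11554 genes that reached 1 RPM in 2 or more of the 5 retained libraries were fitted by limma 3.58.1 in R 4.3.3, with values as log2(RPM + 0.5), a variance trend and the group as the sole term, and p was adjusted over them by Benjamini-Hochberg at 0.05. Python 3.11.15 with pandas 2.3.3 was used for tables. As alternatives, the quasi-likelihood test of edgeR 4.0.16 and DESeq2 1.42.0 were run on the whole reads, and limma was rerun with a pseudocount of 0.1 or 1, a filter of 5 RPM or none, quantile or TMM scaling, no trend, all 6 libraries, replicate blocks and each library left out in turn. The limma fit was also run on simulated counts with known changes. Their spread between libraries was set at a fixed value and not taken from these data, so that run does not measure the error of the fits here. Coordinates are from GENCODE 44 on GRCh37, and 94.9% of tested genes matched it. Of the members, 22 overlap another coding gene and 6 have annotated pseudogenes of their name (CHEK2, MRE11A, RBBP8, BRCA1, RAD52 and FANCD2). Limits from read depth cover counting error only.

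The members and lists were chosen with earlier results of these data known. Values in every library are given for members called or not overlapping, the 3 highest and 3 lowest fold changes, the largest change in each role group and members below the filter, and for up to 2 genes of each other list that did not overlap. Values of further members were added for context. In the list of further recombination genes, 1 gene is not reported here.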

Additional observations from a re-analysis of the deposited data

Results flagged for a closer look

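FANCF in shSc replicate 3, a library outside the main comparison, had 104 RPM, against 13.8 and 14.7 RPM in the other shSc libraries and 26.6 to 30.0 RPM in NPMKD. RAD51D in the same library had 1.24 RPM, against 0.070 and 0.558 RPM in the other shSc libraries and 0.085 to 0.738 RPM in NPMKD, and it was the member below the filter on low values.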

How the results depend on the processing

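Over 17 alternatives, 247 of the 255 values of the 15 members named by the rule kept their direction and their side of the threshold, 5 reversed and 3 passed the threshold. Most alternatives called few genes of any kind, so the side of the threshold had little room to change. The size of the change was not counted: FANCF, at 0.99 in the main fit and 0.05 with all 6 libraries, counted as kept. With a library left out, log2 fold changes ran from -2.59 to 0.35 in ATM, -0.53 to 1.22 in NBN and -0.06 to 0.46 in BRCA1, each reversed without shSc replicate 2, and that of FANCE was 0.03 over all 6 libraries, with and without the replicate block. With all 6 libraries, blocked or not, 6 members (16.2%, against 13.9% of all genes) did not overlap. With a library left out 13 (35.1%, against 28.0% of all genes, without NPMKD replicate 2) to 25 did not, the highest counts without shSc replicate 1 (23, or 62.2%, against 56.2%) and without shSc replicate 2 (25, or 67.6%, against 57.0%), where a single shSc library is assumed to vary like the others. The median over members was -0.06 to 0.10. NPM1 passed the threshold with DESeq2 (-1.71) and in the replicate block of libraries numbered 1 and 2 (-1.46). Same-numbered libraries deviated together in pairs 1 and 2 (correlations 0.43 and 0.31, against -0.34 and -0.37 across these numbers) but not in pair 3 (0.04). The deviations were taken from group means that include shSc replicate 3, which stood apart, so pair 3 cannot decide whether the numbers are pairs. The labels do not state pairing. The main fit did not use the numbers, so any effect shared by same-numbered libraries stays in its SEs. In the block of the 4 libraries numbered 1 and 2, with 1 residual degree of freedom, 14.9% of all genes were called. It called 3 members, ATM (-1.94, adjusted p = 0.000229), RAD51C (0.87, adjusted p = 0.0105) and FANCF (1.05, adjusted p = 0.00856), and 8 genes of the other lists (TIMELESS, TIPIN, FAM175A, MAD2L2 and FIGNL1 of recombination, POLQ of end joining, CCNE1 and BUB1 of S phase and mitosis), while the block over all 6 libraries called 0 of either.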
